A study of Mus musculus with 2 samples.

Results

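Genes of glycolysis and of the hypoxia response were examined in primary mouse embryonic fibroblasts (MEFs) after silencing of the lncRNA AK156230. The set was fixed by name, with earlier results of these data known. It holds 42 genes, which cover glucose and lactate transport, the glycolytic enzymes, the hypoxia-inducible factors (HIFs), their oxygen sensors and well known HIF targets. A gene was measured if at least 1 probe set of the array was annotated to it alone, and this held for 38 of the 42 genes, among 18193 named genes in all. Gapdh and Bnip3l were listed only together with other genes, on 3 probe sets each, while Gpi1 and Eno1 had no listed probe set, so these 4 genes were not measured here. The MEFs came from 13.5-day C57BL/6 embryos and were young cells at passage 2. They were transfected either with GapmeR Control, a scrambled oligonucleotide (control cells), or with GapmeR AK156230, an oligonucleotide that makes RNase H cut the lncRNA (named knockdown cells here after their label), and each condition was hybridized to 1 array. Both groups thus share the transfection and differ in the GapmeR, and a single GapmeR against AK156230 was used on the arrays. AK156230 was not among the names or accessions of the annotation used, in which 9160 of 45037 probe sets were not listed, so its level was not analysed here.

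Glycolysis splits glucose into pyruvate in the cytosol and gives ATP without oxygen, and lactate dehydrogenase then turns pyruvate into lactate, which monocarboxylate transporters carry out of the cell. HIF transcription factors pair an oxygen-sensitive alpha subunit with ARNT. In normal oxygen the prolyl hydroxylases of the Egln genes mark the alpha subunit, and the ubiquitin ligase that contains VHL removes it. In low oxygen HIF binds a short core motif in the promoters of genes for glucose uptake, glycolysis, mitophagy and angiogenesis. Proliferating fibroblasts in culture run glycolysis strongly even with oxygen present.

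The bases upstream of the transcription starts of 5 genes at the ends of the results are shown with their matches to the HIF core motif, which number 3 in Ero1a, 5 in Bnip3 and 1 each in Pdk1, Aldoc and Ldhb. Searched were ACGTG and GCGTG on both strands, so that CACGT and CACGC on the gene's strand also count, and CACGTG counts once on each strand. Matches are in capitals. Each line gives the 250 bases before a transcript's start from RefSeq promoters of GRCm38.p6, read 5′ to 3′ on the gene's strand. Pdk1 and Aldoc had 2 windows each, of which the one with more matches is shown, and the start used for Pdk1 lies a few bases inside the gene's span given below. Ero1a, Pdk1, Bnip3 and Aldoc were lower in knockdown cells by 2-fold or more, and Ldhb was the highest of the set. Ndrg1, also past 2-fold, had no window in the promoter table and is not shown.
Ero1a, chr14:45318573-45318822, minus strand: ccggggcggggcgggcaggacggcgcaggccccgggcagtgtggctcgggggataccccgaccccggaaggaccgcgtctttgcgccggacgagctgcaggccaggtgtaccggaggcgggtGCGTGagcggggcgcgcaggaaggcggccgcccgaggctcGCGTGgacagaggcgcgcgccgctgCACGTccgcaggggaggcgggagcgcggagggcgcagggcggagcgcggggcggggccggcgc
Pdk1, chr2:71872974-71873223, plus strand: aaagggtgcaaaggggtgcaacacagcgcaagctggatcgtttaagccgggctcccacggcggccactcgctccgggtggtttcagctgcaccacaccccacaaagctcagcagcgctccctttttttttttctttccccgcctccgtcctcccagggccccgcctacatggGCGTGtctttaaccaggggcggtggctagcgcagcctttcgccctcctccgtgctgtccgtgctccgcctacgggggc
Bnip3, chr7:138909507-138909756, minus strand: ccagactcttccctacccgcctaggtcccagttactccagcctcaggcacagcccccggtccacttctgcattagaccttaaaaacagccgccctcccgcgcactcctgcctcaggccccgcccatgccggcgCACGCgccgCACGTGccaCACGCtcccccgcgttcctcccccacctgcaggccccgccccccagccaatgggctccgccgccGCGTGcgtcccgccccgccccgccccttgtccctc
Aldoc, chr11:78322823-78323072, plus strand: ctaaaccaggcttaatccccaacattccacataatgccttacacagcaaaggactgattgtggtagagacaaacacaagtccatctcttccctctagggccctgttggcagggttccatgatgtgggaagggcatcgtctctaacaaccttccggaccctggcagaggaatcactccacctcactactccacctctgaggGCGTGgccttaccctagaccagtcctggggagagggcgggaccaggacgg
Ldhb, chr6:142507958-142508207, minus strand: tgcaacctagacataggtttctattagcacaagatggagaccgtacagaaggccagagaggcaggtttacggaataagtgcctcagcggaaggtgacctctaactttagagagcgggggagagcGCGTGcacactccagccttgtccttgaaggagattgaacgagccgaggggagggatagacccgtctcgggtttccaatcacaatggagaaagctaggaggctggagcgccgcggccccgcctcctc

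The deposited table holds 1 MAS5 signal per probe set and array, on a linear scale in arbitrary units. Over all probe sets the median was 54.8 in control and 51.0 in knockdown cells. Each gene was read from the brightest of its probe sets (by mean log2 signal over the arrays), and the ratio (knockdown over control, on the log2 scale) was taken on the signals as deposited. Values below 0 are lower in knockdown cells. With 1 array per condition there was no replicate error, no test was run and no difference has a replicate check. As a measure of scatter within the arrays, the 2 brightest probe sets of a gene were compared, and a single probe set scattered by 0.276 (SD of the log2 ratio) over 5112 genes with 2 probe sets at or above the median signal of the brighter array. Among the members with such a pair the same SD was 0.172. Probe sets of a gene share their arrays and are not replicates. Labelled as fibroblasts, the cells had signals of 6598 and 6212 for Vim and of 7019 and 4399 for Col1a2 in control and knockdown cells. Vim and Col1a2 come from a list of 12 fibroblast markers. Of that list 5 were at least 2-fold lower in knockdown cells, and its median log2 ratio was -0.95.

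Most of the measured genes were lower in knockdown cells, and 5 of the 38 were lower by 2-fold or more. These were Ero1a, Aldoc, Pdk1, Bnip3 and Ndrg1, which make 13.2% of the set, whereas 3.85% of all named genes were that much lower. At or above the median signal of the brighter array stood 37 of the 38, with the same 5 lower (13.5%), against 4.92% of all genes at that signal. None was higher by 2-fold or more, which held for 1.59% of all named genes. Of the 38 genes 31 had a log2 ratio below 0 and 7 above it, a share below 0 of 81.6% in the set and of 58.8% among all named genes. The median log2 ratio was -0.30 in the set and -0.074 over all named genes. The quartiles lay at -0.53 and -0.093 in the set and at -0.31 and 0.16 over all genes. The lowest member was Ero1a at -1.40 and the highest was Ldhb at 0.74. The SD was 0.486 among the members, 0.519 over all named genes and 0.571 over those at or above the median signal. A further 4 genes, Slc16a3, Hk2, Epas1 and Pfkl, lay between 1.5-fold and 2-fold lower, and Ldhb alone was higher by 1.5-fold or more. That makes 9 genes lower by 1.5-fold or more, or 23.7%, against 9.69% of all named genes, and 1 higher, against 5.48%.

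**Figure D1:**
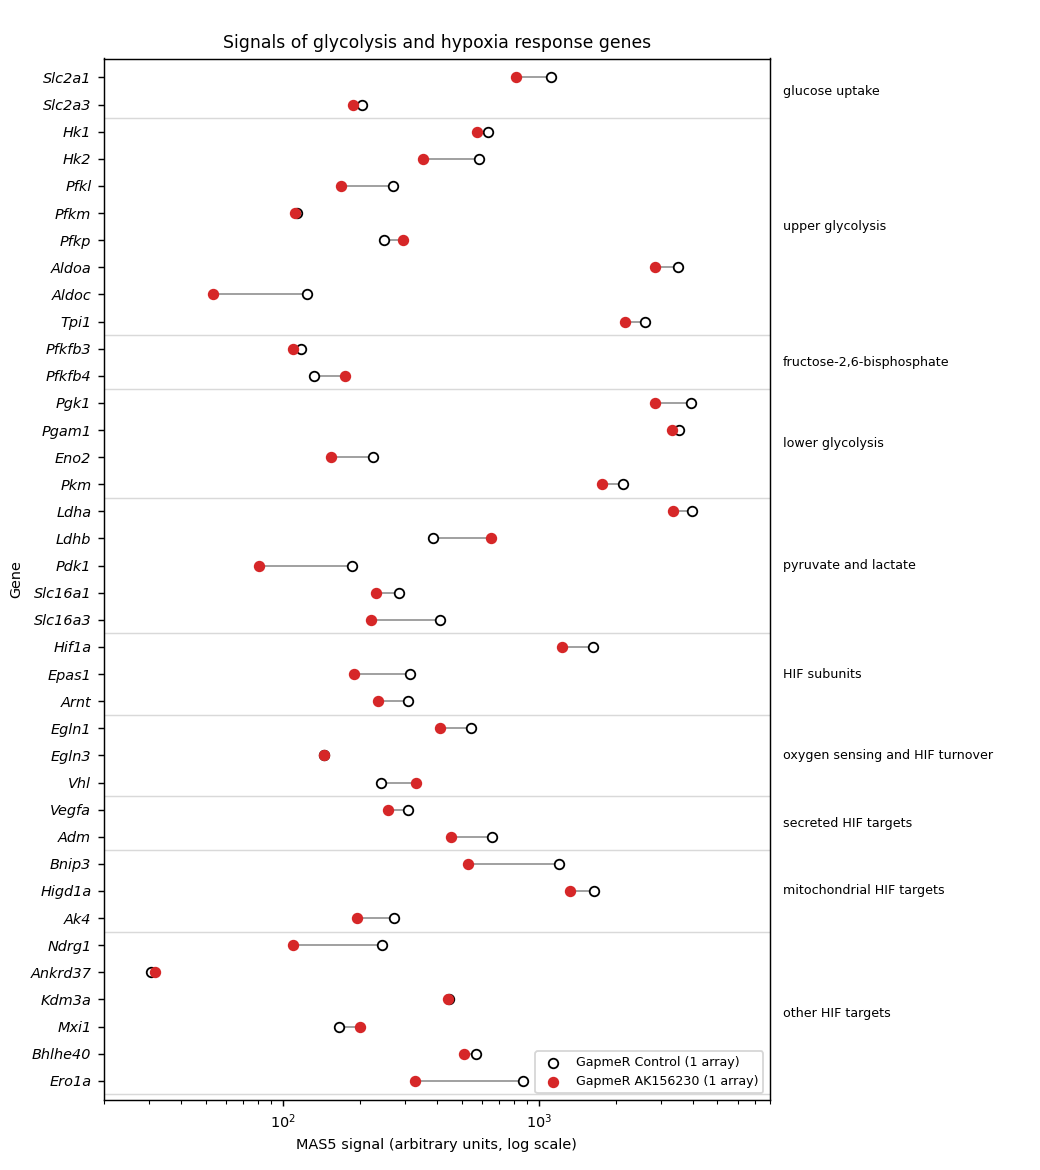
MAS5 signal on a log scale for each measured gene, grouped by role, with an open point for the GapmeR Control array, a red point for the GapmeR AK156230 array and a line joining them. The red point lies to the left for 31 of the 38 genes, with the widest gaps in Ero1a (866 and 328), Aldoc (124 and 53.2) and Pdk1 (187 and 80.5).

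**Figure D2:**
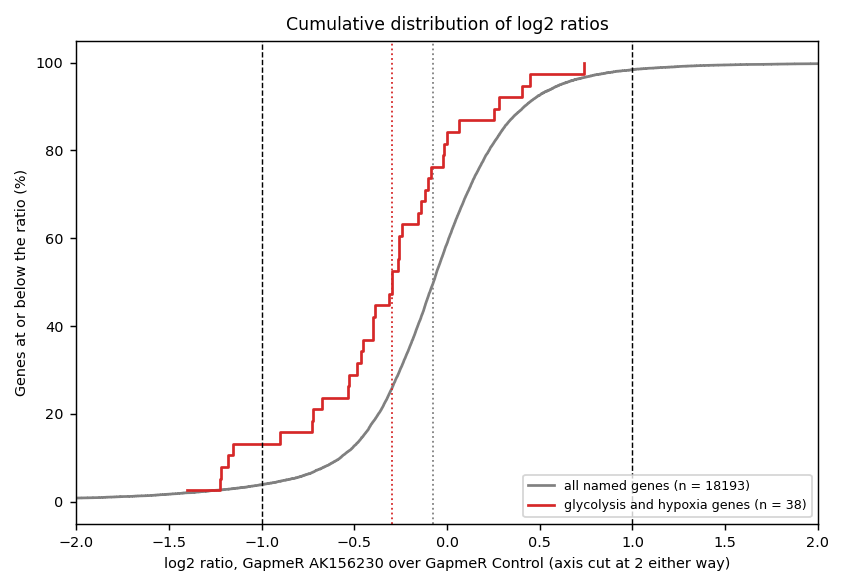
Cumulative share of genes, in percent, against the log2 ratio of knockdown over control cells, with the 38 measured genes in red, all 18193 named genes in grey, dotted lines at the medians and dashed lines at 2-fold. The red curve is to the left over most of the range, with medians of -0.30 and -0.074.

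Ero1a encodes an oxidase of the endoplasmic reticulum that drives disulfide formation and is induced by low oxygen. The signal of Ero1a was 866 in control and 328 in knockdown cells, 2.64-fold lower. The gene lies on chromosome 14 of GRCm38.p6 from 45283087 to 45318572, and the remaining 2 probe sets were at -1.15 and -1.14. All 3 probe sets of Ero1a were thus past 2-fold, and no other member had every probe set there apart from Bnip3, which had a single one. Bnip3 encodes a mitochondrial outer membrane protein that recruits the autophagy machinery to mitochondria. It lies on chromosome 7 from 138890836 to 138909506, with signals of 1197 and 528, 2.27-fold lower. Pdk1, the kinase that shuts the pyruvate dehydrogenase complex and so keeps pyruvate out of the citric acid cycle, lies on chromosome 2 from 71873215 to 71903858. The brightest probe set had 187 in control and 80.5 in knockdown cells, 2.33-fold lower. The other bright probe sets of Pdk1 were at -1.59 each, and a dim one, under the arrays' median signal, was at -0.45.

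The other genes past 2-fold were less uniform across their probe sets. Ndrg1, a stress-responsive gene used widely as a marker of hypoxia, lies on chromosome 15 from 66929318 to 66969641 and had signals of 244 and 109, 2.22-fold lower. The remaining probe sets of Ndrg1 were at -1.38, -0.79, -0.50 and -0.25, all below 0. The probe sets of Ndrg1 past 2-fold are of the _x_at and _s_at kinds, which can also bind other transcripts, and without these kinds the log2 ratio was -0.79. Aldoc encodes the aldolase best known from brain. It lies on chromosome 11 from 78323073 to 78327781 and had 124 in control and 53.2 in knockdown cells, 2.34-fold lower. The second signal is close to the median of that array, and a second probe set of Aldoc, dim on both arrays (30.4 and 33.0), had a log2 ratio of 0.12. With 24.3, the 25th percentile of all signals, added to every signal, Aldoc was at -0.94.

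**Figure D3:**
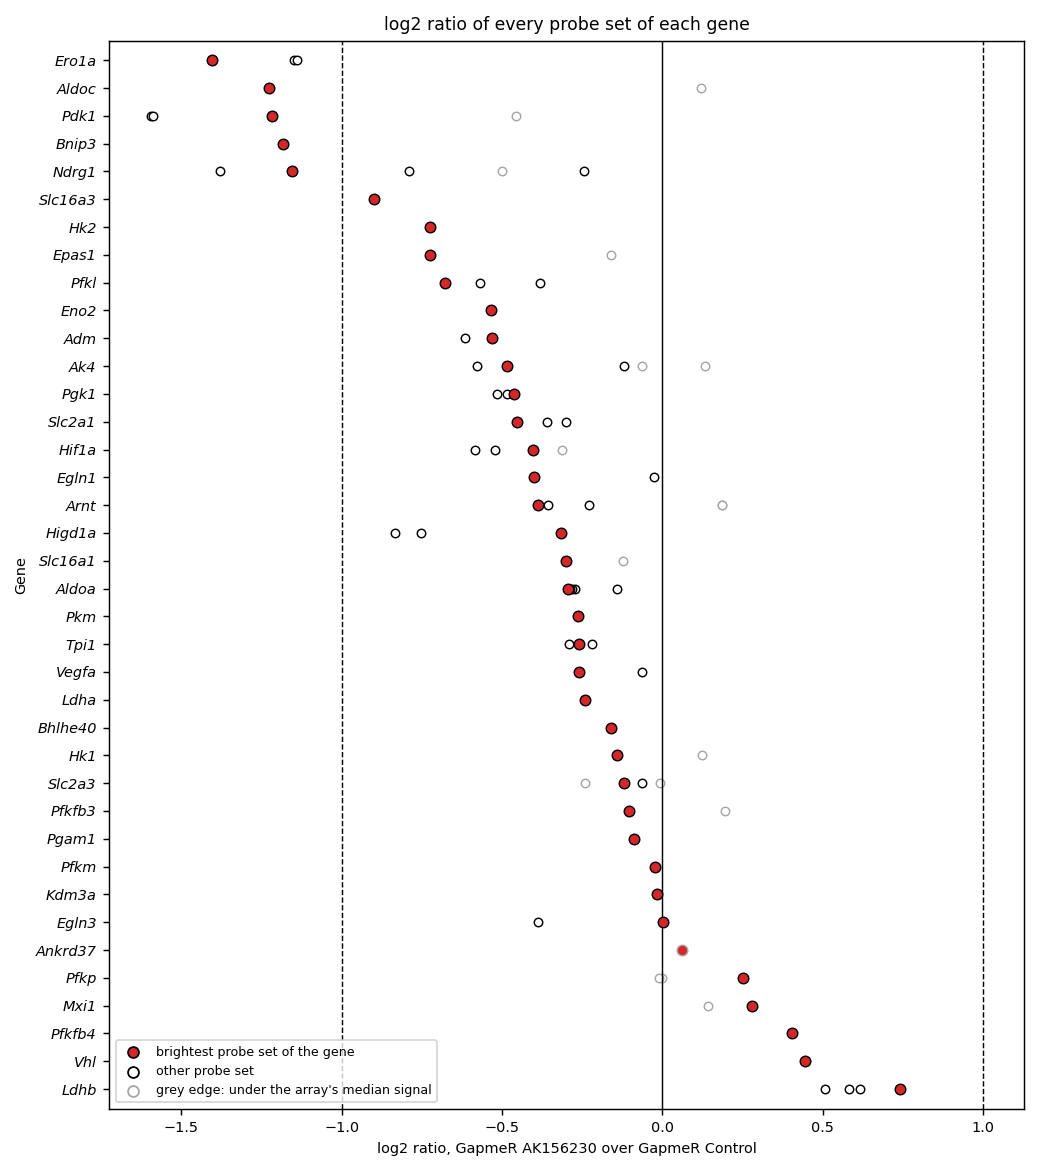
log2 ratio of each of the 91 probe sets of the 38 measured genes, ordered by the brightest probe set of the gene (red), with other probe sets open, grey edges for those under the array's median signal and dashed lines at 2-fold. Ero1a has all its probe sets past -1, those of Ndrg1 range from -1.38 to -0.25, and the 4 of Ldhb lie between 0.51 and 0.74.

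The measured glucose transporters and most enzymes of the glycolytic chain had log2 ratios below 0, from near level to 2.34-fold lower in Aldoc. Slc2a1 encodes GLUT1, the main glucose carrier of cultured fibroblasts, and it had 1119 in control and 818 in knockdown cells, a log2 ratio of -0.45, with -0.36 and -0.30 at its other probe sets. Slc2a3, which encodes GLUT3, was close to even at 204 and 188, with its other probe sets between -0.24 and -0.0068. Of the 12 measured enzymes of the chain 11 were below 0 (91.7%, against 58.8% of all named genes), with a median of -0.28. Aldoc alone was lower by 2-fold or more (8.33%, against 3.85% of all named genes). Pfkp alone of the 12 was above 0. With both arrays scaled to the same median, Pfkm and Pgam1 were above 0 too, at 0.082 and 0.017. Hexokinase traps glucose in the cell as its phosphate. The signal of Hk2, the hypoxia-inducible isozyme, was 582 and 352, a log2 ratio of -0.73, and that of the constitutive Hk1 was 635 and 576, at -0.14, with 0.12 at a dim second probe set.

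Phosphofructokinase commits sugar to glycolysis, and its 3 subunit genes did not go together. Pfkl, the liver type, had 269 in control and 168 in knockdown cells, a log2 ratio of -0.68, with -0.38 and -0.57 at its other probe sets. Pfkm, the muscle type, was almost level at 114 and 112, and Pfkp, the platelet type, was at 248 and 295, a log2 ratio of 0.25. The other probe sets of Pfkp, both dim, were level at 0 and -0.011. The difference in log2 ratio between Pfkl and Pfkp was -0.93, and with all probe sets of each gene averaged they were at -0.54 and 0.081. Pfkfb3 and Pfkfb4 encode bifunctional enzymes that set the level of the activator of phosphofructokinase. Pfkfb3 was near level at 117 and 109 (0.20 at a dim second probe set), while Pfkfb4 had 132 and 175, a log2 ratio of 0.41.

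Aldoa and Tpi1, which encode the main aldolase and triosephosphate isomerase, had several probe sets in close agreement. Aldoa had signals of 3497 and 2850, a log2 ratio of -0.30, and its other 4 probe sets lay between -0.29 and -0.14. All probe sets of Aldoa are of the _x_at kind, which can also bind other transcripts. Without the _x_at and _s_at kinds Aldoa had no probe set left. Tpi1 had 2613 and 2183, at -0.26, with -0.29 and -0.22 at its others. In the lower, ATP-forming part of the chain, Pgk1, phosphoglycerate kinase, had 3932 and 2853, at -0.46, with -0.51 and -0.48 at its other probe sets. Eno2, the enolase best known from neurons, was at -0.53 (224 and 155). Pkm, pyruvate kinase, was at -0.26 (2133 and 1776), and Pgam1, phosphoglycerate mutase, was nearly level at 3548 and 3337. No lower-chain gene that was measured had a log2 ratio above 0 or lay past 2-fold.

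At the branch of pyruvate and lactate the genes went different ways. Ldha, which encodes the subunit of lactate dehydrogenase that favours lactate formation, had 3964 in control and 3352 in knockdown cells, a log2 ratio of -0.24. Ldhb, which encodes the heart-type subunit, had 388 and 649, 1.67-fold higher, and its other probe sets were at 0.51, 0.58 and 0.62. Ldhb lies on chromosome 6 from 142490249 to 142507957, and its 4 probe sets were all higher, the only member gene with several bright probe sets all above 0. The brightest is of the _x_at kind, and without _x_at and _s_at probe sets the log2 ratio of Ldhb was 0.51. The log2 ratios of Ldhb and Ldha differed by 0.98. The lactate exporter Slc16a3, MCT4, had 412 and 221, a log2 ratio of -0.90, and Slc16a1, MCT1, had 286 and 232, at -0.30, with -0.12 at a dim second probe set. In the other families the difference in log2 ratio was -0.93 for Aldoc minus Aldoa, -0.60 for Slc16a3 minus Slc16a1, -0.59 for Hk2 minus Hk1, -0.33 for Slc2a1 minus Slc2a3 and 0.51 for Pfkfb4 minus Pfkfb3. These differences are between single probe sets. The scatter of 0.276 is that of a single probe set, and a difference between probe sets scatters more than that.

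The transcripts of the HIF subunits were all lower, by less than 2-fold. Hif1a, the oxygen-regulated subunit found in most cells, had 1626 in control and 1231 in knockdown cells, a log2 ratio of -0.40, and its other probe sets lay between -0.58 and -0.31. Epas1 encodes HIF2 alpha. It had 314 and 190, at -0.72, and a dim second probe set was at -0.16. Arnt, the shared partner, had 310 and 237, at -0.39, with its other bright probe sets at -0.36 and -0.23. The dim probe sets of Arnt were both at 0.19, and the mean of all its probe sets was -0.12. HIF alpha is set mainly by protein turnover, which arrays do not read.

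The regulators of HIF turnover did not move together. Egln1, the main oxygen sensor, had 543 and 412, a log2 ratio of -0.40, but its second probe set was level at -0.026. Egln3, itself a HIF target, was level at 145 and 145, with -0.39 at its second probe set, the only case among 35 further bright probe sets whose sign differed from that of the brightest. Vhl had 243 in control and 330 in knockdown cells, a log2 ratio of 0.45, and a dim second probe set was also at 0.45.

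The set's HIF targets outside glycolysis, with Egln3 counted among the regulators above, held 3 of the 5 genes past 2-fold. They were 3 of 11 measured (27.3%, against 3.85% of all named genes and 4.92% of those at or above the median signal). The median of the 11 was -0.32. Among 37 further HIF targets outside the set, described below, the share lower by 2-fold or more was 2.7%. Besides Ero1a, Bnip3 and Ndrg1, the vasodilator peptide gene Adm had 659 and 456, a log2 ratio of -0.53, with -0.62 at its other probe set. Vegfa, the growth factor for blood vessels, had 309 and 258, at -0.26, with -0.062 at its other. The mitochondrial genes Ak4, an adenylate kinase, and Higd1a, which acts on the respiratory chain, were lower as well. Ak4 had 272 and 194, at -0.48, with -0.58 and -0.12 at its other bright probe sets and 0.13 and -0.063 at the dim ones, and the mean of all was -0.22. Higd1a had 1653 and 1328, at -0.32, with -0.83 and -0.75 at its other probe sets. Other common HIF targets were level or higher. Kdm3a, a histone demethylase, was level at 448 and 443, and Bhlhe40, a repressor of the clock, was near level at 570.0 and 511. Mxi1, an antagonist of MYC, had 165 and 201, at 0.28, with 0.14 at a dim second probe set, and Ankrd37 was dim on both arrays, at 30.4 and 31.8. Of the 11 targets 9 were below 0 (81.8%, against 58.8% of all named genes) and 2, Mxi1 and Ankrd37, above it.

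Among 98 measured genes of the same pathways outside the set 7 were lower by 2-fold or more (7.14%, against 3.85% of all named genes) and 1 was higher, against 1.59% of all named genes. Of 17 further glucose, lactate and glycolysis genes none was past 2-fold in either direction, with a median of -0.19. Of 13 genes that bring pyruvate into mitochondria none was past it either, and their median was -0.0023. Of 7 genes of the pentose phosphate pathway 1 was past it, H6pd, the dehydrogenase of the endoplasmic reticulum, at 423 in control and 157 in knockdown cells, 2.69-fold lower. Of 13 genes of glycogen metabolism and gluconeogenesis 3 were lower by 2-fold or more, with a median of -0.42. Gbe1, the glycogen branching enzyme, had 149.5 and 19.8, a log2 ratio of -2.92. Pygl, a glycogen phosphorylase, had 75.8 and 25.3, at -1.59. Pck2, the mitochondrial enzyme that makes phosphoenolpyruvate, had 547 and 203, at -1.43, with -1.54 at its other probe set. The second signals of Gbe1 and Pygl lie under the median of their array.

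Of 11 further genes of the HIF machinery 2 were lower by 2-fold or more (18.2%, against 3.85% of all named genes), with a median of -0.030. Ep300, a coactivator that HIF alpha binds, had 522 in control and 223 in knockdown cells, 2.34-fold lower, whereas its relative Crebbp had 584 and 643. Arnt2, a relative of Arnt, had 189 and 39.6, at -2.25, on 1 bright probe set, and its dim ones were at 0.052 and -0.37. The highest of the 11 was Cited2, with 800 in control and 1344 in knockdown cells, a log2 ratio of 0.75. Its second probe set was at 1.03. Of 37 further HIF targets 1 was lower by 2-fold or more (2.7%, against 3.85% of all named genes), and the median was -0.042. By as much 1 was higher, against 1.59% of all named genes. The lower one was the chemokine gene Cxcl12 (2174 and 390, 5.57-fold, with -2.40 at its other bright probe set). The higher one was Edn1, the precursor of endothelin (69.6 and 154.5, 2.22-fold). The median of these further HIF targets thus lay closer to that of all genes than to that of the 11 targets described above. Of these 37 targets 21 were below 0 (56.8%, against 58.8% of all named genes) and 16 above it. Among the higher ones were Plin2, Ccng2 and Hilpda, at 0.76, 0.62 and 0.44. The genes that modify collagen in this list included P4ha1, P4ha2, Plod1 and Lox, at -0.78, -0.84, -0.72 and -0.39. Plod2 was level at -0.0031, with 0.33 at its other probe set. The other probe sets of P4ha1 and Plod1 were at -0.42 and -0.13, and those of Lox at -0.41 and -0.47.

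**Figure D4:**
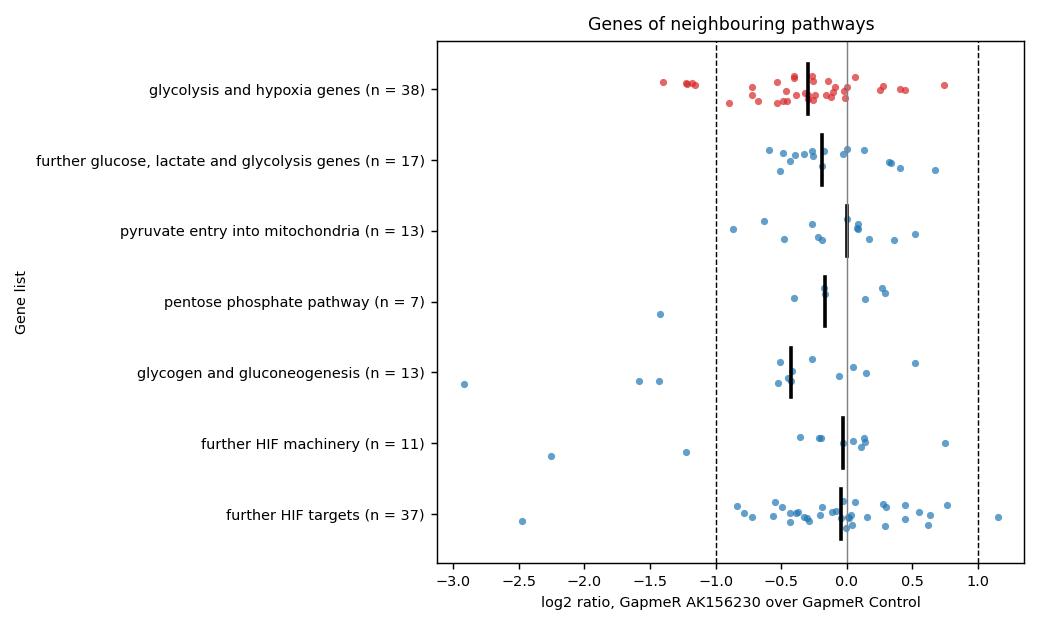
Ratio of knockdown over control cells (log2) for the measured genes of the glycolysis and hypoxia set (red) and of 6 lists of neighbouring pathway genes (blue). Black bars mark the medians and dashed lines 2-fold. These medians range from -0.42 for glycogen and gluconeogenesis to -0.0023 for pyruvate entry into mitochondria.

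Long genes were lower more often on these arrays, and the set was therefore placed by genomic span. Of the genes at or above the median signal, those at least 2-fold lower made up 2.35% under 10 kb, 2.19% from 10 to 20 kb, 2.76% from 20 to 40 kb, 5.12% from 40 to 80 kb, 8.3% from 80 to 160 kb and 25.4% over 160 kb. In the same classes the members lower by that much were 1 of 9, 1 of 7, 2 of 7, 1 of 12 and 0 of 2. The measured members span 2.16 to 111 kb with a median of 23.9 kb, close to the 22.5 kb of all genes at that signal, and none was in the longest class. Of 23 members under 40 kb 4 were lower by 2-fold or more, against 2.43% of the 8313 genes of that span. Their median was -0.30 and that of all such genes was -0.012. Ero1a spans 35.5 kb, Pdk1 30.6 kb, Bnip3 18.7 kb, Aldoc 4.71 kb and Ndrg1 40.3 kb. Among the genes past 2-fold outside the set Gbe1 and Arnt2 are long, at 256 and 165 kb.

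**Figure D5:**
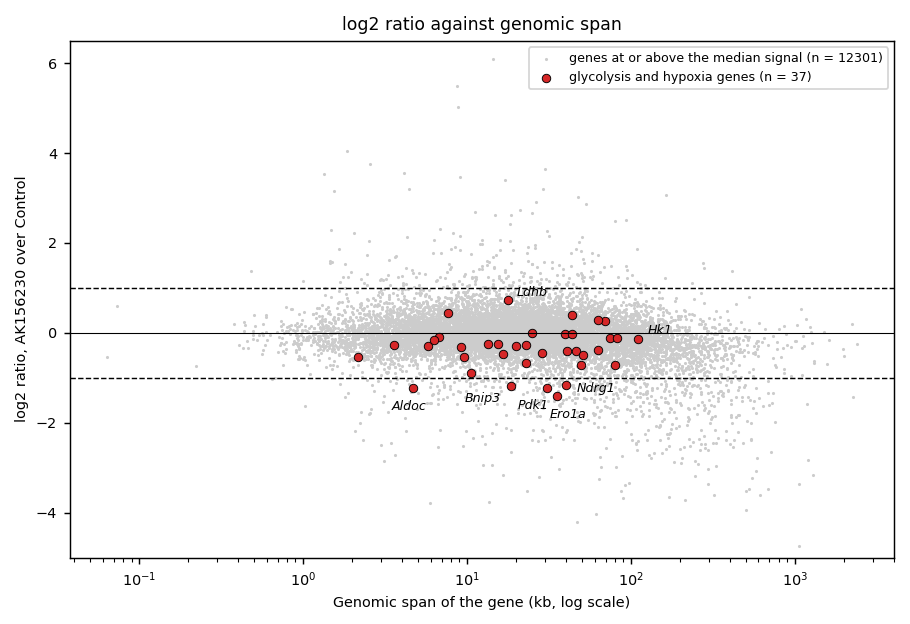
Ratio of knockdown over control cells (log2) against genomic span in kb on a log axis, for genes at or above the median signal (grey) and the 37 members at that signal (red), with dashed lines at 2-fold. The named members past 2-fold span 4.71 to 40.3 kb, while the grey points past 160 kb extend furthest down.

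The core motif was common in the promoters of the set. RefSeq windows from 250 bases before to 50 after the start were at hand for 34 of the 38 genes. ACGTG or GCGTG on either strand was in 41 of their 53 windows (77.4%), and in 43.8% of all 32851 windows. Counted by gene, 91.2% of the 34 members had a match in a window, against 59.3% of 14452 named array genes. The median GC content was 63.0% in the windows of the members and 52.7% in all, so GC content and motif share were both higher in the member windows. The part of GC content in these shares was not tested. Bnip3 had 5 matches in its window, of which a pair overlaps in CACGTG, Ero1a and Aldoc had 3 each, and Pdk1 had 2. In Aldoc 2 of these, and in Pdk1 1, touch or follow the start and are not in capitals above. Ldha had 7 matches at a log2 ratio of -0.24, and Ankrd37, dim on both arrays, had 4 at 0.062. Whether the number of matches goes with the ratio was not tested. The 31 members with a match had a median of -0.30 and the 3 without one, Tpi1, Eno2 and Vhl, were at -0.26, -0.53 and 0.45. Over all named array genes with a window, the median was -0.059 with a match and -0.082 without. A match is a run of letters and says nothing on binding.

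Other signals moved in the same comparison. Over all named genes 3.85% were at least 2-fold lower and 1.59% at least 2-fold higher. Of 12 fibroblast markers 5 (Col3a1, Lum, Pdgfra, Pdgfrb and Fap) were at least 2-fold lower (41.7%) and none was at least 2-fold higher. The fibroblast list had a median of -0.95 and a summed signal of 39151 in control and 27183 in knockdown cells. Of 6 endothelial markers 1 was higher by 2-fold or more, Kdr (44.5 and 90.9), with signals of all 6 under 91 on both arrays and a summed signal of 186 and 227. The erythroid markers Hba-a1, Hbb-y, Alas2 and Klf1 were all under the median signal. Of 6 macrophage markers Cd68 was 2.54-fold higher (108 and 275) and none was lower by 2-fold. In that list 4 genes were below 0 and 2 above it, among them Csf1r, Adgre1 and Lyz2 at -0.30, -0.56 and -0.46. Its median was -0.28, and its summed signal was 1143 in control and 1048 in knockdown cells. None of 6 skeletal muscle and 5 keratinocyte markers was past 2-fold, while 1 of 3 adipocyte markers (Fabp4, 235 and 52.2) and 1 of 4 neuron markers (Tubb3, 152 and 70.3) were lower. The part of cell composition in the results was not tested, and in bulk RNA fewer cells of a type and less RNA per cell cannot be told apart.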

How the data were processed

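Total RNA of MEFs transfected with GapmeR Control or GapmeR AK156230 was hybridized to Affymetrix arrays, 1 per condition. The deposited intensity values are probe set signals that the authors made with MAS5 and scaled per array (version and scaling target not given in the sources used here). They lie between 1 and 9207 and carry no detection calls. The methods name a porcine array, whereas the labels give mouse RNA and the probe sets match the mouse annotation used. Of 45037 probe sets 34945 had 1 gene symbol, 932 had several and 9160 were not listed. Of those with 1 symbol, 34741 took their gene name through the Entrez ID. Spans and positions are those of RefSeq genes of GRCm38.p6. Ratios were taken without an offset and counted at 2-fold, the threshold of the study. The test it names (SAM) needs groups of arrays, so none was run, and the number of arrays limits the precision. The members and lists were chosen with earlier results of these data known. All measured members are named, as are genes of the 6 further lists past 2-fold at or above the median signal of the brighter array; others were named after their values were seen. Alternatives were other scalings (same median, quantile, loess), an offset, minimum signals, other thresholds (1.5-fold and 3-fold), averaging a gene's probe sets and leaving out _x_at and _s_at probe sets; the mean of bright probe sets was added after seeing the data. Counting was tested on simulated data. Python 3.11.15, numpy 2.4.6, pandas 2.3.3, statsmodels 0.14.6 and matplotlib 3.10.9 were used.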

Additional observations from a re-analysis of the deposited data

How the results depend on the processing

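No paired analysis was possible because each condition had 1 array. Of the 38 genes 5 were lower by 2-fold or more; this count was 9 at 1.5-fold, 0 at 3-fold and 3 when all probe sets of each gene were averaged (Bnip3, Ero1a and Pdk1), and 4 or 5 under the other alternatives. The count of genes higher by 2-fold or more was 0 throughout and 1 at 1.5-fold (Ldhb). Bnip3, Ero1a and Pdk1 were past 2-fold under every alternative but the 3-fold threshold. Ndrg1 was at -0.81 with the mean of all its probe sets, and Aldoc at -0.55. Scaling both arrays to the same median moved the median of all genes by 0.105, which took the members below 0 from 31 to 27 and a set median of -0.19, and 29 members were below the median of all genes before and after. The share of calls that were lower over all genes was 70.8%, and 60.0% after that scaling. The median of the set minus that of all genes lay between -0.30 and -0.17 over the alternatives. No member past 2-fold changed sign. A knockdown signal near its array's median in Aldoc, and signals under the median on both arrays in Ankrd37, limit these ratios.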
